A study of Mus musculus with 15 samples.

Results

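The 10 genes described here encode channels that move water, chloride and sodium across the epithelium of the mouse uterus. They are the aquaporins Aqp1, Aqp3, Aqp4, Aqp5, Aqp8 and Aqp9, the chloride and bicarbonate channel Cftr, and the subunits Scnn1a, Scnn1b and Scnn1g of the epithelial sodium channel. They were found by gene symbol among the 28269 genes listed in the tables. RNA was sequenced from the epithelium facing the lumen (luminal, LE) and from that of the glands (glandular, GE). All samples were from day 4. Wild-type (WT) LE and GE, LE and GE of the Notch1-overexpressing genotype titled E-OEX, and LE of the Notch1-overexpressing genotype titled U-OEx were sampled with 3 libraries each. The labels explain neither abbreviation, nor do they give the driver of the transgene, the strain, the age or any pooling of animals, and the names are used as labels only.

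The uterine lumen fills with fluid and empties again under the control of ovarian steroids. Cftr lets chloride and bicarbonate leave the cell toward the lumen, and water follows through aquaporins. The epithelial sodium channel, assembled from alpha, beta and gamma subunits, takes sodium up from the lumen, and water follows in the direction of absorption. In the uterus, secretion through Cftr is associated with estrogen, and absorption through the sodium channel with the closing of the lumen around the embryo before implantation. Notch1 is a receptor whose released intracellular part acts on genes together with the DNA-binding protein RBPJ.

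Promoters of 4 members are shown because Notch signalling reaches DNA through RBPJ, and because Scnn1g and Scnn1b are neighbours on chromosome 7. The sequences are the RefSeq promoters on build GRCm38.p6, from 250 to 11 bases before the annotated start, and windows of 8 of the 10 members were read. Aqp4 was left out of this search, and Scnn1a was not among the windows. The windows are chr6:55336049-55336288 for Aqp1, chr7:123462044-123462283 for Aqp8, chr7:121734229-121734468 for Scnn1g and chr7:121864788-121865027 for Scnn1b, all on the plus strand. Capitals mark the letters TGGGAA or their reverse complement TTCCCA, the core that RBPJ binds.
Aqp1: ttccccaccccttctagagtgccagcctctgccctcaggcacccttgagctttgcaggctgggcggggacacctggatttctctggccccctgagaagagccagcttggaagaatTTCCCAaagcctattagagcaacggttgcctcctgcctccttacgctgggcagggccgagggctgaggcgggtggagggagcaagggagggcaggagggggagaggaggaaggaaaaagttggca
Aqp8: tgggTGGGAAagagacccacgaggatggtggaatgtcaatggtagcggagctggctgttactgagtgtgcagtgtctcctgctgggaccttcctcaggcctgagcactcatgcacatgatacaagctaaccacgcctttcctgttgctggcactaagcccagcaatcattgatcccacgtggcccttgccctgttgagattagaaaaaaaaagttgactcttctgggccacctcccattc
Scnn1g: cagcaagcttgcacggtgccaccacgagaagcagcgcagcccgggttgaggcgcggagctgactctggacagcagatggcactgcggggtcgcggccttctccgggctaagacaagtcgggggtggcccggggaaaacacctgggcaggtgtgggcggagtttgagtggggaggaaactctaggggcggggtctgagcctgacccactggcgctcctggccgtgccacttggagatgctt
Scnn1b: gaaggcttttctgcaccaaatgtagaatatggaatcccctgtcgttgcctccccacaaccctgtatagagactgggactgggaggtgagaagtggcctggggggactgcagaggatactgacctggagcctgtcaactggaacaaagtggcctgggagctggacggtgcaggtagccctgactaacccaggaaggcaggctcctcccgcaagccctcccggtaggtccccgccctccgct

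Aqp1 held 1 match, whose first base lay 135 bases before the start, and Aqp8 held 1 match, 246 bases before the start. Scnn1g and Scnn1b held none in this window. Over the 9 windows of the 8 members (Aqp9 has more than 1 entry), 3 held the core, and 20.8% of 32851 promoter windows of the same length did. The estrogen response element (GGTCA and TGACC, 3 bases apart) occurred in 0.0578% of all windows, and the glucocorticoid and progesterone response element (AGAACA and TGTTCT, 3 bases apart) in 0.00913%. Neither occurred in a window of these 8 members. Both strands were searched, and a match is a description of letters only.

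The deposited values are read counts divided by a scaling factor per library, called scaled reads below. The listed genes held 3818041 to 4797424 reads in a WT library, 1980800 to 3494859 in an E-OEX library and 13541644 to 14981505 in a U-OEx library. The WT tables hold 6414 genes and those of E-OEX hold 4903, in which the means of GE and LE differed by about 2-fold or more, and the U-OEx tables hold 27946 genes. A member that a table does not list was not analysed there. The WT and E-OEX tables list 6 members each and the U-OEx tables all 10, with Aqp1, Aqp4, Aqp5, Aqp8 and Cftr in every table. Notch1 itself was listed in U-OEx LE only, at 2913, 3524 and 2789 scaled reads, so its overexpression was not checked against WT. The summed luminal markers Wnt7a, Calb1, Lpar3 and Krt13 were at 29006 to 54285 in WT LE, 7788 to 14581 in E-OEX LE and 1898 to 3837 in U-OEx LE, against 392 to 834 in WT GE and 521 to 1153 in E-OEX GE. Within the sum, Calb1 and Lpar3 fell in E-OEX LE against WT LE (log2 -3.19 and -2.41), Krt13 rose (3.41) and Wnt7a did not pass (-0.54), by limma. In U-OEx LE Calb1 (-7.03), Lpar3 (-4.70) and Wnt7a (-1.07) fell, and Krt13 did not pass (2.51). The GE libraries also held stromal markers (Pdgfra, collagens and others), at 28951 to 94691 in WT GE and 74971 to 87099 in E-OEX GE, against 185 to 5561 in WT LE. In such bulk libraries, fewer cells of a type and less RNA per cell cannot be told apart.

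**Figure D1:**
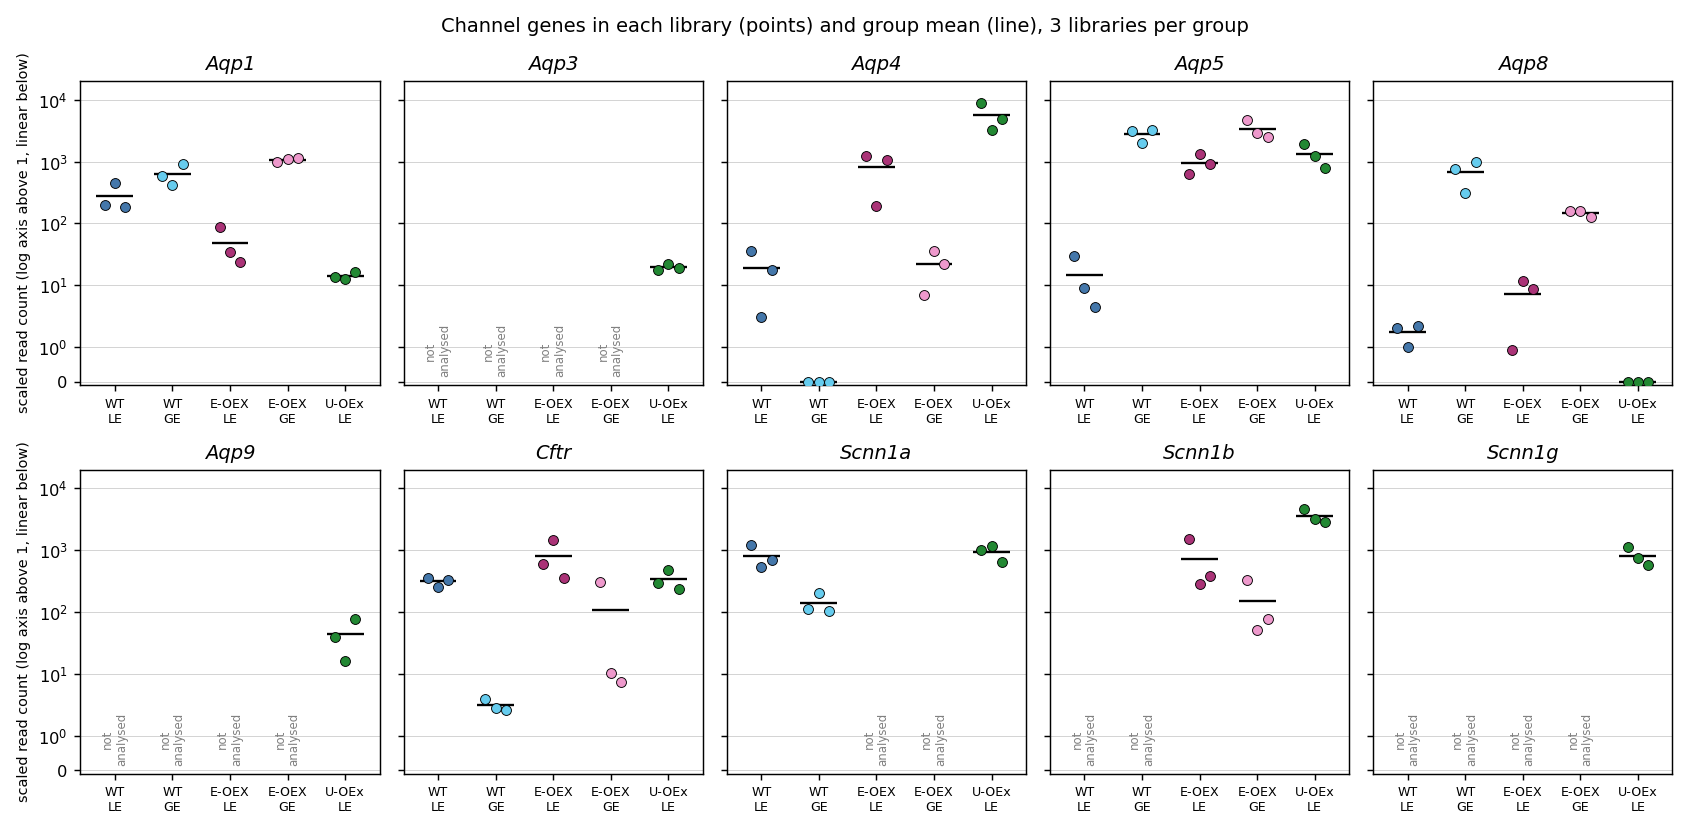
Scaled reads of the 10 channel genes (vertical axis, logarithmic above 1) in each library (points) of the 5 groups (horizontal axis), with the group mean as a line. Aqp5 lay between 4.47 and 30.04 in the 3 WT LE libraries and between 620 and 4736 in all 12 libraries of the other groups, and Aqp4 was highest in U-OEx LE.

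In the luminal epithelium of both Notch1-overexpressing genotypes, Aqp4 and Aqp5 were higher and Aqp1 was lower than in WT, while the values for Cftr lay close to WT in U-OEx LE. In the GE libraries, Aqp8 was lower and Aqp4 higher in E-OEX than in WT. The test was limma on log2(value + 1), Benjamini-Hochberg adjusted over all genes tested, and an adjusted p under 0.05 counted as passing. Fold changes below are on that log2 scale, which understates changes of low values. In E-OEX LE against WT LE, 3 of 5 members tested passed (2 higher, 1 lower), where 10.7% of 2600 genes did (5.12% higher, 5.54% lower). The same 3 did not overlap between the groups, as was the case for 29.9% of those genes. In E-OEX GE against WT GE, 2 of 5 passed (1 higher, 1 lower) against 23.5% of 2851 genes (9.72% higher, 13.8% lower), and 3 of 5 did not overlap, against 40.5%. In U-OEx LE against WT LE, 3 of 5 passed (2 higher, 1 lower), where 56.9% of 5949 genes did (29.1% higher, 27.8% lower), so that the share is near the background, and 3 of 5 did not overlap, against 63.8%. In U-OEx LE against E-OEX LE, 2 of 6 passed, both higher, against 15% of 4275 genes (6.97% higher, 8.05% lower), and 4 of 6 did not overlap, against 38.2%. That count was 0 without U-OEx LE library 1 or without library 3, and 1 without U-OEx LE library 2, E-OEX LE library 2 or E-OEX LE library 3. These 3 comparisons of LE share libraries, so they are not independent of each other. Members were chosen with earlier results of these data known, so their counts beside all genes are a description only. Genes tested were also limited to those the WT or E-OEX tables list, which differed about 2-fold or more between GE and LE. Values compared between genotypes were rescaled together from the recovered reads of the shared genes with the TMM method of edgeR.

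**Figure D2:**
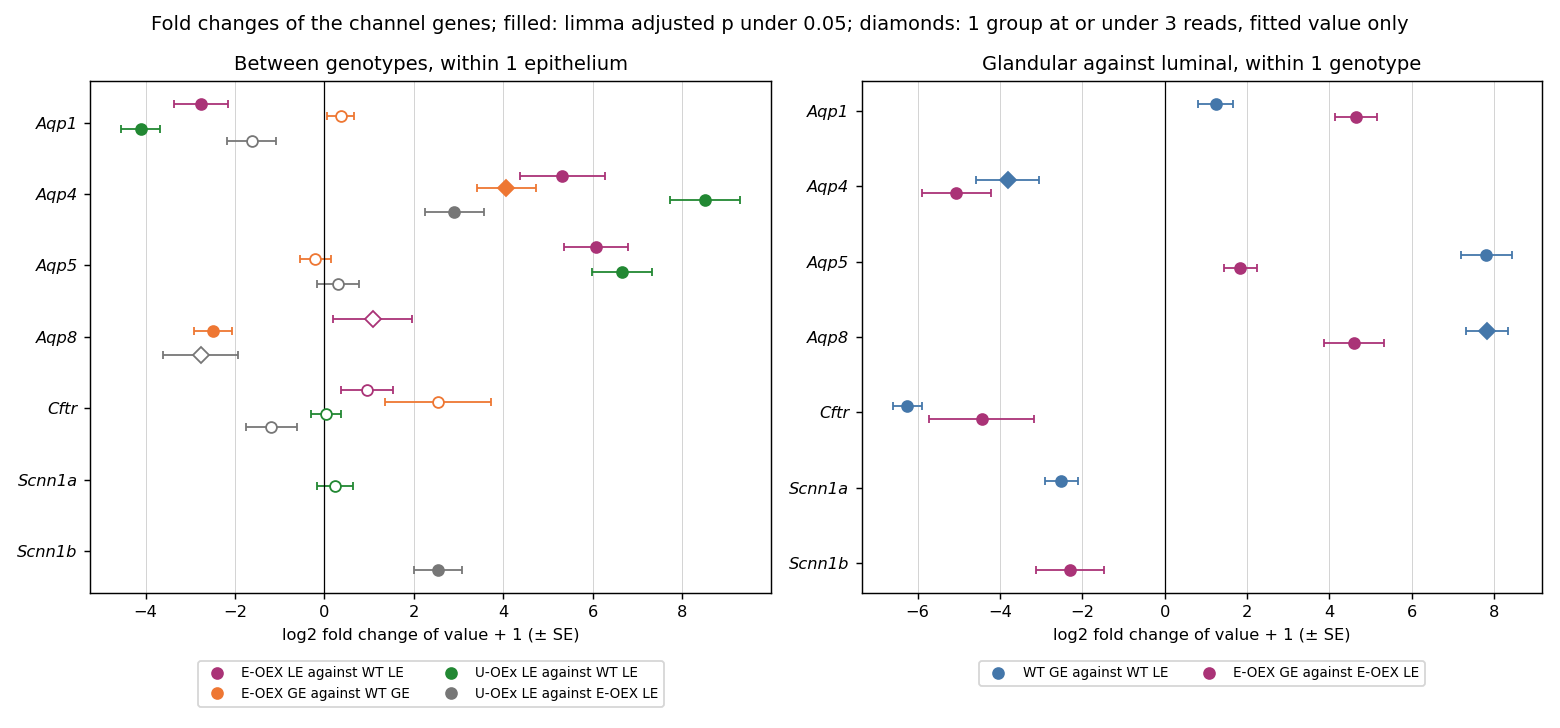
Log2 fold change (horizontal axis, points, with bars of 1 SE) of each channel gene (vertical axis) between genotypes within an epithelium (left) and between epithelia within a genotype (right), 3 libraries per group. Filled points passed the limma threshold, and diamonds have a group at or under 3 reads in every library, so their position is a fitted value and not a bound. Aqp4 and Aqp5 lay to the right and Aqp1 to the left of 0 in both Notch1-overexpressing LE groups.

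Aqp5 (chromosome 15) encodes a water channel of the apical membrane of gland and airway cells. Its scaled reads were 30.04, 9.22 and 4.47 in WT LE, 620, 1308 and 916 in E-OEX LE, and 1941, 1219 and 775 in U-OEx LE. The highest WT LE library lay below the lowest library of either Notch1-overexpressing LE group. Aqp5 rose in E-OEX LE by a log2 value of 6.07 (SE 0.72, 67.2-fold, limma adjusted p = 0.00157). In U-OEx LE it rose by 6.65 (SE 0.68, limma adjusted p = 0.000107). Between both overexpressing LE groups the libraries overlapped, with a log2 difference of 0.30 (95% interval -0.78 to 1.38, limma adjusted p = 0.703). In GE, Aqp5 was at 3142, 1958 and 3234 in WT and at 4736, 2879 and 2485 in E-OEX, and these groups overlapped too. The log2 difference in GE was -0.21 (95% interval -0.99 to 0.57, limma adjusted p = 0.726), and on the deposited scale it was 0.26.

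The summed markers of glands were also higher in both Notch1-overexpressing LE groups than in WT LE. In U-OEx LE against WT LE, 4 of 5 gland markers tested rose (Foxa2, Lif, Cxcl15 and Wfdc3), where 29.1% of all genes did. In E-OEX LE against WT LE 1 of 5 rose (Wfdc3), where 5.12% of all genes did. The sum of Foxa2, Lif, Cxcl15, Ttr, Wfdc3, Prss28 and Prss29, as far as listed, was 48.7 to 85.0 in WT LE (7 of 7 listed), 215 to 1321 in E-OEX LE (5 of 7) and 1040 to 1440 in U-OEx LE (6 of 7), with Ttr and Prss29 at 0 in all U-OEx libraries. It was 23583 to 42153 in WT GE. In E-OEX LE library 1 the gland sum was the highest of that group, at 1321, and Aqp5 the lowest, at 620. Aqp8, which was high in WT GE, had 0 reads in all 3 U-OEx LE libraries. The part of glandular RNA in the Aqp5 result was not tested.

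Aqp8 (chromosome 7) encodes a channel for water that also passes ammonia and hydrogen peroxide. In WT GE it was at 751, 312 and 991 scaled reads, and in E-OEX GE at 161, 161 and 128. Every E-OEX gland library lay below every WT gland library. Aqp8 fell in E-OEX GE by 2.50 on the log2 scale (SE 0.43, 5.65-fold, limma adjusted p = 0.00285), and the adjusted p was at most 0.0354 under the alternatives run. Smooth muscle markers differed between the same libraries: 4 of 5 tested rose in E-OEX GE (Acta2, Actg2, Cnn1 and Myh11, log2 1.65 to 1.89, limma), where 9.72% of all genes did. The sum of the smooth muscle markers was 2734 to 4878 in WT GE (5 of 6 listed) and 14173 to 17508 in E-OEX GE (6 of 6). The part of smooth muscle RNA in the values of E-OEX GE was not tested. Among gland markers, mean scaled reads in WT GE and E-OEX GE were 6400 and 838 for Lif, 1351 and 24.9 for Ttr, and 4385 and 1647 for Cxcl15. The libraries of these markers did not overlap. Those of Foxa2 (means 2364 and 2265) and Wfdc3 (1870 and 2215) did. Whether Aqp8 fell apart from other gland genes was not tested. In LE Aqp8 was near the limit of counting: WT LE held 2, 1 and 2 reads, E-OEX LE was at 0.913, 11.8 and 8.63 scaled reads, and U-OEx LE held none, which allows up to 3 reads per library. WT LE and E-OEX LE overlapped (limma adjusted p = 0.470). The mean of Aqp8 in E-OEX LE was 2.99-fold the limit of 3 reads per library in U-OEx LE, and the difference missed the threshold (limma adjusted p = 0.0561). Without E-OEX LE library 1, which held a single read, the adjusted p was 0.00874, and over all alternatives it ranged from 0.00784 to 0.157.

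Aqp1 (ENSMUSG00000004655, chromosome 6, 55336432 to 55348555) encodes a water channel found in capillary endothelium as well as in epithelia. Its scaled reads were 199.9, 455 and 183 in WT LE, 87.6, 34.5 and 23.7 in E-OEX LE, and 13.8, 12.4 and 16.3 in U-OEx LE. The 3 groups were fully separated, with WT LE highest and U-OEx LE lowest. Aqp1 fell in E-OEX LE by 2.76 on the log2 scale (SE 0.60, limma adjusted p = 0.0202) and in U-OEx LE by 4.11 (SE 0.43, 17.3-fold, limma adjusted p = 0.000123). The call in E-OEX LE was lost without WT LE library 2 (limma adjusted p = 0.0672), WT LE library 3 (0.0824) or E-OEX LE library 2 (0.0784), with log2 values from -2.98 to -2.41. Against E-OEX LE, U-OEx LE was lower by a log2 value of -1.63 that did not pass (limma adjusted p = 0.0781), and it passed with DESeq2 (adjusted p = 0.0150; range over the alternatives 0.0150 to 0.205). In GE, Aqp1 was at 580, 424 and 898 in WT and 988, 1097 and 1151 in E-OEX. After rescaling, these groups overlapped, with a log2 difference of 0.37 (95% interval -0.31 to 1.04, limma adjusted p = 0.443).

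Other cell types were read beside Aqp1. The sum of 8 endothelial markers (Pecam1, Cdh5, Kdr, Tek, Emcn, Vwf, Egfl7 and Esam) was 226, 523 and 246 in WT LE and 357, 360 and 303 in U-OEx LE, where all 8 were listed, and 180, 167 and 365 for the 7 listed in E-OEX LE, with Emcn at 0 there. The endothelial sums of WT and U-OEx LE overlapped. WT LE library 2, with the highest Aqp1 of that group, also had its highest endothelial sum and its highest stromal sum (5561 against 185 and 1680). Over the 5 groups, the libraries had the same order for Aqp1 and the endothelial sum in 2 (WT GE, at 3895, 3275 and 5335, and E-OEX GE) and for Aqp1 and the stromal sum in 2 (E-OEX LE, at 2353, 1015 and 391, and U-OEx LE). The order was reversed for the stromal sum in WT GE (46206, 94691 and 28951) and for the endothelial sum in U-OEx LE. None of the 7 endothelial markers tested passed the limma threshold in E-OEX GE against WT GE or in E-OEX LE against WT LE, where 23.5% and 10.7% of all genes did. In U-OEx LE against WT LE 2 of 8 passed, both higher (Pecam1 and Tek), where 29.1% of all genes were higher. Cdh5 was lower in all E-OEX LE libraries than in WT LE (log2 -2.13, limma adjusted p = 0.0788). The part of endothelial RNA in the level of Aqp1 was not tested.

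**Figure D3:**
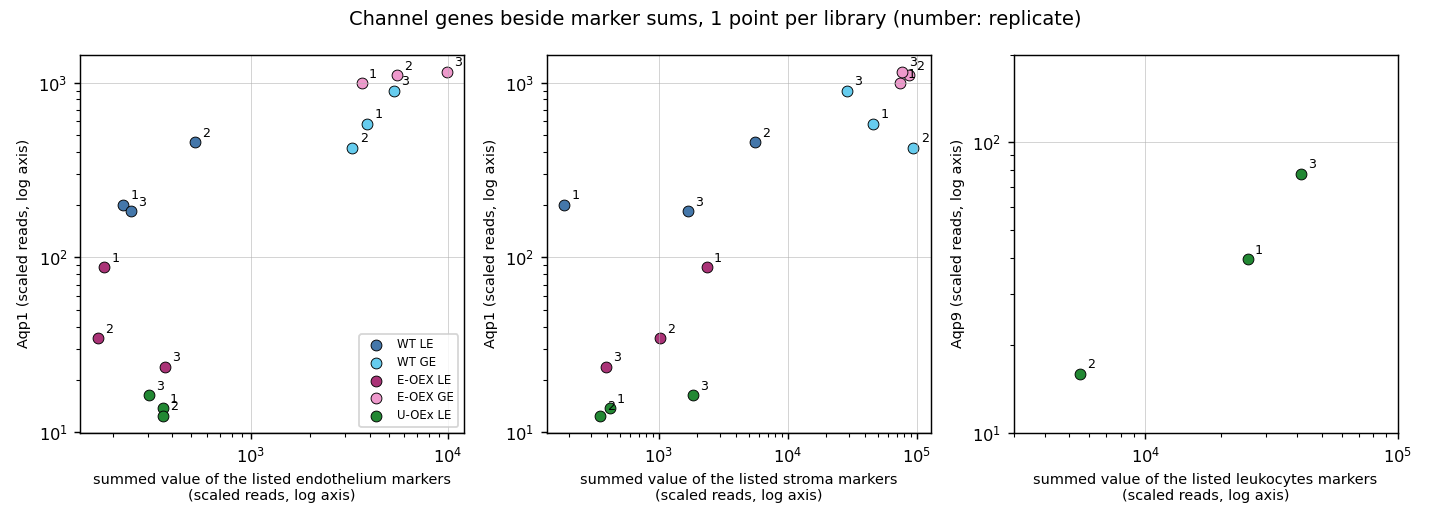
Scaled reads of Aqp1 and Aqp9 (vertical axes, logarithmic) beside the summed scaled reads of endothelial, stromal and leukocyte marker genes (horizontal axes, logarithmic), 1 point per library with its replicate number. In the first panel U-OEx LE (Aqp1 12.4 to 16.3) and WT LE (183 to 455) share a range of endothelial sums, and in the last panel Aqp9 and the leukocyte markers have the same order over the 3 U-OEx libraries.

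Aqp4 encodes a water channel best known from astrocytes, and in the uterus it is a known steroid-responsive gene of the luminal epithelium. It was at 35.2, 3.07 and 17.9 scaled reads in WT LE, at 1232, 193 and 1065 in E-OEX LE and at 8759, 3292 and 4894 in U-OEx LE. Every library of a group lay above every library of the group before it. Aqp4 rose in E-OEX LE by a log2 value of 5.32 (SE 0.94, limma adjusted p = 0.0111) and in U-OEx LE by 8.51 (SE 0.79, 364-fold, limma adjusted p = 7.16e-05). The call in E-OEX LE was lost without E-OEX LE library 1 (log2 4.90, limma adjusted p = 0.0624). It was higher in U-OEx LE than in E-OEX LE by 2.90 (SE 0.65, limma adjusted p = 0.0235), a call lost without U-OEx LE library 1 (0.115) or library 3 (0.101). In WT GE, Aqp4 had 0 reads in all 3 libraries, and in E-OEX GE it was at 7.01, 35.6 and 22.5 scaled reads. That is at least 5.55-fold higher than the 3 reads per library that a count of 0 allows (limma adjusted p = 0.00217). The E-OEX GE libraries had the same order for Aqp4 as for the luminal markers Calb1 (152, 669 and 454) and Lpar3 (229, 446 and 378). Wnt7a (48.1, 1.15 and 6.56) and Krt13 (91.1, 36.8 and 16.9) had other orders. The part of luminal RNA in Aqp4 of E-OEX GE was not tested.

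Aqp3, a channel for water and glycerol, and Aqp9, a channel for water, glycerol and urea that neutrophils also carry, were listed in the U-OEx tables only. Aqp3 was at 17.5, 22.2 and 19.2 scaled reads and Aqp9 at 39.5, 16.0 and 77.8. The order of the 3 libraries for Aqp9 was also that of the summed leukocyte markers (8 symbols in 9 entries, at 25414, 5496 and 41226), among them S100a8 (6694, 456 and 10773) and the neutrophil receptor gene Csf3r (6327, 2041 and 11256). The part of leukocytes in Aqp9 was not tested. Among the other aquaporins, Aqp2, which lies next to Aqp5 in the cluster on chromosome 15, was at 11.9 ± 3.55 scaled reads (SD, n = 3) in U-OEx LE, and Aqp6 from the same cluster at 0.320 ± 0.555 (SD, n = 3), where Aqp5 was at 1312 ± 588 (SD, n = 3).

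Cftr (chromosome 6) was a luminal gene in WT: 350, 258 and 331 scaled reads in LE against 4, 3 and 3 reads in GE. In E-OEX LE it was at 595, 1462 and 350 and in U-OEx LE at 298, 482 and 233. Both groups overlapped WT LE. The log2 difference from WT LE was 0.94 in E-OEX LE (95% interval -0.36 to 2.24, limma adjusted p = 0.341) and 0.03 in U-OEx LE (95% interval -0.74 to 0.81, limma adjusted p = 0.942). U-OEx LE differed from E-OEX LE by a log2 value of -1.19 (95% interval -2.49 to 0.11, limma adjusted p = 0.184). The annotated antisense gene Gm15592 shares exon bases with Cftr, and since no strand setting is given in the sources used here, reads of both cannot be told apart.

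In the glands of E-OEX animals Cftr was uneven: library 1 was at 304 scaled reads, library 2 at 10.3 and library 3 at 7.49. All 3 lay above the WT GE libraries, but their log2 difference from WT of 2.54 (SE 1.19) missed the threshold (limma adjusted p = 0.158). Without E-OEX GE library 1 it was 0.83 (limma adjusted p = 0.325), and edgeR's quasi-likelihood test on all libraries called it (adjusted p = 0.0425; range over the alternatives 0.0360 to 0.325). Scnn1b was highest in that same library, at 328 against 51.7 and 78.7. The luminal markers Wnt7a (48.1 against 1.15 and 6.56) and Krt13 (91.1 against 36.8 and 16.9) were also highest there, whereas Calb1 (152 against 669 and 454), Lpar3 (229 against 446 and 378) and the luminal channel Aqp4 (7.01 against 35.6 and 22.5) were lowest there. The part of luminal RNA in Cftr of that library was not tested.

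The alpha subunit Scnn1a (chromosome 6), which the sodium channel needs to conduct, was listed in WT and U-OEx tables. It was at 1221, 532 and 696 scaled reads in WT LE, at 114, 206 and 103 in WT GE and at 1000, 1181 and 645 in U-OEx LE. WT LE and U-OEx LE overlapped, with a log2 difference of 0.23 (95% interval -0.69 to 1.15, limma adjusted p = 0.644), which was -0.074 without WT LE library 2. The beta subunit Scnn1b (chromosome 7) was listed in the E-OEX and U-OEx tables. It was at 1504, 283 and 381 in E-OEX LE, at 328, 51.7 and 78.7 in E-OEX GE and at 4647, 3156 and 2867 in U-OEx LE. All U-OEx LE libraries lay above all E-OEX LE libraries, and Scnn1b was higher there by a log2 value of 2.54 (SE 0.54, 5.80-fold, limma adjusted p = 0.0196). The call was lost without E-OEX LE library 2 (adjusted p = 0.0547), E-OEX LE library 3 (0.0570), U-OEx LE library 1 (0.106), library 2 (0.0565) or library 3 (0.0763), all by limma, with log2 values from 2.11 to 2.71. The leukocyte marker Itgam was also higher in U-OEx LE, at 994, 546 and 1138 scaled reads against 170, 53.6 and 60.4 in E-OEX LE (log2 3.23, limma adjusted p = 0.00638). Its libraries had the same order as those of Scnn1b in E-OEX LE and E-OEX GE, and another order in U-OEx LE. Cd68, the other leukocyte marker listed in both, did not pass (log2 0.56). The part of leukocytes in Scnn1b was not tested. The gamma subunit Scnn1g was listed in U-OEx only, at 1128, 754 and 582. Its gene ends 96.6 kb before the start of Scnn1b, and Aqp8 lies 1544 kb beyond Scnn1b on the same chromosome.

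In U-OEx LE, the group in which all members could be compared, levels per length were set in order (scaled reads per kb of exon, GENCODE M21, mean ± SD over 3 libraries). Scnn1b stood at 1351 ± 363, Aqp4 at 906 ± 451, Aqp5 at 505 ± 226, Scnn1g at 275 ± 93.4 and Scnn1a at 228 ± 65.9, and each of these overlapped its neighbour in the order. Cftr, at 43.5 ± 16.6, lay apart from Scnn1a above it and from Aqp3 below it. Aqp3 (10.7 ± 1.32), Aqp9 (10.7 ± 7.53) and Aqp1 (5.40 ± 0.751) overlapped in turn, and Aqp8 was at 0. Among 25923 genes with reads and a length, Scnn1b ranked at percentile 98.5 and Cftr at 60.0. Within each library, Scnn1b per length was 4.68 to 5.595 times Scnn1g and 4.19 to 7.29 times Scnn1a. The ratio of Scnn1g to Scnn1a was 0.883 to 1.56.

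**Figure D4:**
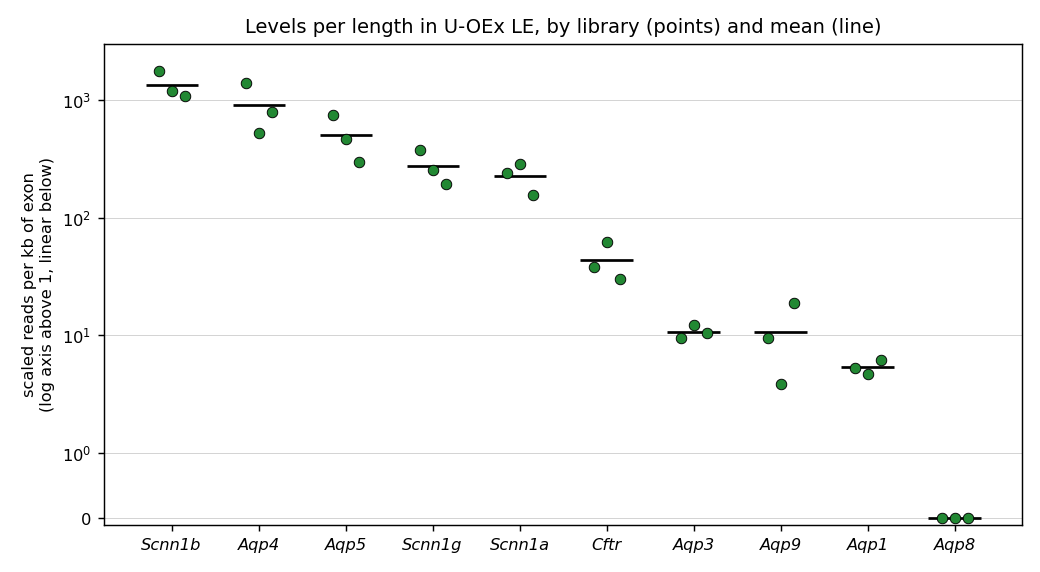
Scaled reads per kb of exon (vertical axis, logarithmic above 1) of the 10 channel genes (horizontal axis, in order of the mean) in the 3 U-OEx LE libraries (points; line, mean). Scnn1b, at 1089 to 1765, lay above both other sodium channel subunits in each library.

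The order differed by group, as far as members were listed. In WT LE it ran Scnn1a (198 ± 87.2 scaled reads per kb, SD, n = 3), Aqp1 (106 ± 57.9), Cftr (40.3 ± 6.25), Aqp5 (5.61 ± 5.23), Aqp4 (3.004 ± 2.58) and Aqp8 (1.12 ± 0.416). Cftr was separated there from Aqp1 and from Aqp5, and other neighbours overlapped. In WT GE Aqp5 stood first, at 1069 ± 274 (SD, n = 3) per kb, above Aqp8 (433 ± 218), Aqp1 (241 ± 92.0), Scnn1a (34.1 ± 13.7) and Cftr (0.401 ± 0.0887), with only Aqp8 and Aqp1 overlapping. Aqp5 was also first in E-OEX GE, at 1295 ± 463 (SD, n = 3) per kb, followed by Aqp1 (411 ± 31.6) and Aqp8 (94.99 ± 11.96), which did not overlap. The ratio of Aqp5 to Aqp8 per length was 1.98 to 3.82 in the WT GE libraries and 10.9 to 17.9 in the E-OEX GE libraries. In E-OEX LE, Aqp5 (365 ± 133, SD, n = 3), Scnn1b (275 ± 258), Aqp4 (133 ± 89.5) and Cftr (103 ± 75.3) overlapped in turn, above Aqp1 (18.5 ± 13.02) and Aqp8 (4.50 ± 3.54).

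Within each genotype the members divide between the epithelia, and since the tables list genes chosen for that difference, the counts restate the choice. In WT all 6 listed members passed (3 higher in GE, 3 lower), as did 97.0% of 6414 genes (56.6% higher, 40.5% lower). In E-OEX all 6 passed (3 and 3), as did 91.6% of 4903 (61.5% higher, 30.1% lower). Aqp5, Aqp8 and Aqp1 were higher in GE in both genotypes by the main test, which for Aqp1 in WT and Aqp5 in E-OEX depended on the scaling. The endothelial sum was also higher in GE, at 3275 to 5335 against 226 to 523 in LE of WT (8 markers listed). In E-OEX it was 3649 to 9854 in GE and 167 to 365 in LE (7 listed). The part of endothelial RNA in the Aqp1 difference between GE and LE was not tested. Cftr and Aqp4 were luminal in both genotypes, Scnn1a in WT and Scnn1b in E-OEX. The summed epithelial markers Cdh1, Krt19 and Epcam were also lower in GE in WT, at 14856 to 15832 against 46881 to 55058 in LE. In E-OEX, where Epcam was not listed, Cdh1 and Krt19 summed to 14008 to 17700 in GE and 33458 to 51892 in LE. The part of a lower epithelial share of GE RNA in these luminal differences was not tested. In WT GE against LE, the log2 fold change was 7.82 for Aqp5 (SE 0.61), -6.26 for Cftr (SE 0.35), -2.51 for Scnn1a (SE 0.40) and 1.24 for Aqp1 (SE 0.43). In WT, with LE at the floor, Aqp8 was at least 215.5-fold higher in GE, and Aqp4 was at least 6.72-fold lower in GE. The ratio of Aqp8 reads pooled over the libraries was 394. Its 95% counting interval of 168 to 1214 leaves out the spread between libraries. In E-OEX, Aqp1 stood at 4.66 (SE 0.51), Aqp8 at 4.605 (SE 0.74), Aqp5 at 1.84 (SE 0.40), Aqp4 at -5.06 (SE 0.83), Cftr at -4.45 (SE 1.28) and Scnn1b at -2.29 (SE 0.83). All listed genes together had a median log2 of 1.36 in WT and 1.75 in E-OEX on the deposited scale, and 1.13 and 1.07 after TMM, so that Aqp1 in WT lay below the median of its own table. Under other scalings Aqp1 in WT and Aqp5 in E-OEX no longer passed. Aqp1 in WT was at 1.01 after TMM (limma adjusted p = 0.0529), 0.60 with DESeq2's scaling (0.172) and 0.52 in a fit over all 5 groups (0.357). Aqp5 in E-OEX was at 1.10 after TMM (limma adjusted p = 0.0666), 0.84 with DESeq2's scaling (0.138) and 0.85 with DESeq2 (0.163). The libraries of GE and LE overlapped for Aqp1 in WT and for Scnn1b in E-OEX, and 5 of 6 members in each genotype did not overlap, where 95.9% of genes in WT and 89.9% in E-OEX did not. Of the E-OEX calls, Cftr was lost without E-OEX GE library 2 (limma adjusted p = 0.0598) or library 3 (0.0624), and Scnn1b without E-OEX LE library 1 (0.0913), E-OEX GE library 2 (0.116) or library 3 (0.107). The Aqp1 call in WT was lost without WT LE library 1 (limma adjusted p = 0.0549) or 3 (0.0890), or without WT GE library 1 (0.0638) or 3 (0.0949).

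Whether the difference between GE and LE itself depended on genotype was tested as an interaction over 2933 genes listed in both sets of tables. Each set lists only genes whose GE and LE means differed by about 2-fold or more. A gene whose difference was lost in either genotype could therefore not enter. Of 5 members, 2 passed (1 higher, 1 lower), against 10.7% of these genes (5.83% higher, 4.91% lower). For Aqp1 the difference was larger in E-OEX than in WT, by 3.42 on the log2 scale (SE 0.71, limma adjusted p = 0.00902). The endothelial marker Cdh5 passed the same test (2.67, limma adjusted p = 0.0320), and the other 6 endothelial markers tested, from 0.29 to 3.34, did not. For Aqp5 it was smaller, by a log2 value of -5.98 (SE 0.77, limma adjusted p = 0.000859). Both came with a change in LE (Aqp1 lower, Aqp5 higher), and after TMM the GE groups overlapped for both. On the deposited scale, which this test used, every Aqp1 library of E-OEX GE (988 to 1151) lay above every library of WT GE (424 to 898). Those tables appear to be scaled separately. Aqp8 narrowly missed, at -3.22 (SE 0.97, limma adjusted p = 0.0505), and passed after TMM (0.0490) and with edgeR (0.0210; range over the alternatives 0.00298 to 0.142), with WT LE at 1 to 2 reads. Cftr missed the threshold (1.81, limma adjusted p = 0.506). The value fitted for Aqp4, with WT GE at 0, depended on the pseudocount: it was -1.25 (limma adjusted p = 0.610), -3.12 at pseudocount 10, where it passed (0.0372), and 1.84 at pseudocount 0.1 (0.520). Its adjusted p ranged from 0.0372 to 0.915 over the alternatives.

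Other genes of epithelial transport, 93 in 7 lists, were read beside the channels. In E-OEX LE against WT LE, 0 of 15 tested passed by limma, against 10.7% of all genes. An unadjusted p under 0.05 was reached by 3, edgeR and DESeq2 called 1 each, and 3 were called in a fit over all 5 groups and without E-OEX LE library 3. In E-OEX GE against WT GE, 3 of 18 were higher and 2 lower, against 9.72% and 13.8% of all genes. Vipr1, the receptor for vasoactive intestinal peptide, a signal that opens Cftr, rose by 1.66 (log2, SE 0.35), Fxyd4, a regulator of the sodium pump, by 2.21 (SE 0.43) and Car8, a carbonic anhydrase relative without enzyme activity, by 1.36 (SE 0.26). The large-conductance potassium channel gene Kcnma1 fell by 2.87 (log2, SE 0.29), and Clca3a2, of the calcium-activated chloride channel regulators, by 2.42 (SE 0.58). The limma adjusted p of these 5 genes ranged from 0.000159 to 0.0147. The calls for Vipr1, Car8 and Clca3a2 were lost in a fit over all 5 groups (adjusted p up to 0.0947 for Vipr1, 0.0659 for Car8 and 0.304 for Clca3a2 over the alternatives, limma), and that for Clca3a2 also without WT GE library 1, WT GE library 3 or E-OEX GE library 3.

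In U-OEx LE against WT LE, 13 of 41 transport genes tested were higher and 11 lower, near the shares of all genes (29.1% and 27.8%). Of the anion and bicarbonate transporters, 5 of 8 rose and 2 fell, with a median log2 of 2.58 against 0.09 for all genes tested. Clca3a2 (8.11), Clca3a1 (5.91) and Slc26a9, a chloride transporter that works beside Cftr (4.24), rose most, though reads may be split among the near-identical Clca genes. Of the potassium channels 4 of 7 rose and 1 fell (median 1.73): Kcnj15 was at least 18.5-fold higher, and Kcnn4 (4.58) and Kcne3 (2.48), a partner of Kcnq1 in chloride-secreting cells, rose as well. For sodium and proton exchange and the sodium pump, 1 of 8 rose and 3 fell (median -1.06, or -0.96 with genes at the floor at their bounds). Among them Fxyd4 fell by 3.86 (log2), Slc9a2, a sodium and proton exchanger, fell by 3.77, and Fxyd5, another pump regulator, rose by 3.80. The pump subunit gene Atp1b1, named after its values were seen, fell by 3.35. Of the regulators of the sodium channel 2 of 7 rose and 2 fell: the kinase gene Stk39 (4.38) and the mineralocorticoid receptor gene Nr3c2 (2.47) rose, while Tsc22d3, an aldosterone-induced activator of the channel, fell by 2.55. Vipr1 rose by 3.59 and Ezr, which anchors membrane proteins, fell by 1.12, the other 2 Cftr partners tested not passing. Car2 fell by 0.99, as 1 of 6 carbonic anhydrases. Aqp11, an intracellular aquaporin, fell by 6.38, from 3261, 1255 and 2865 scaled reads in WT LE to 28.5, 46.2 and 14.4 in U-OEx LE. The limma adjusted p of the genes named here was at most 0.00588.

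**Figure D5:**
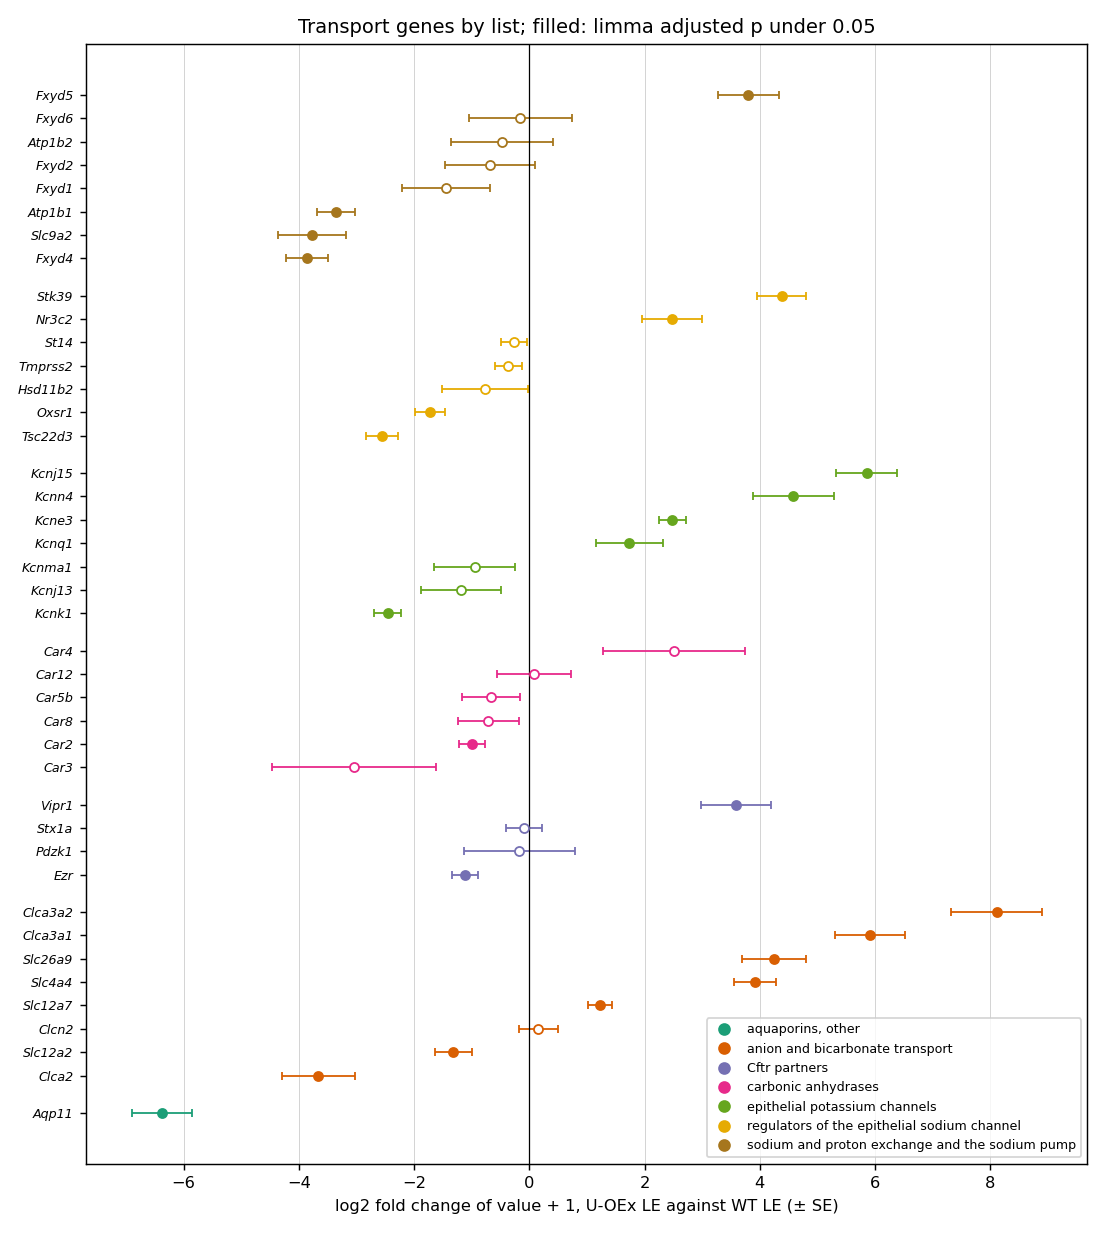
Log2 fold change in U-OEx LE against WT LE (horizontal axis, points, with bars of 1 SE, 3 libraries per group) of the 41 transport genes tested, grouped by list (vertical axis, colours). Filled points passed the limma threshold; of these, 13 lie to the right and 11 to the left of 0.

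Between U-OEx LE and E-OEX LE, 0 of 19 transport genes were higher and 3 lower by limma, against 6.97% and 8.05% of all genes, with 9 at an unadjusted p under 0.05. Clca1 was lower by a log2 value of -2.16 (SE 0.36), Kcne1 by -2.51 (SE 0.54), and Clca2, without reads in U-OEx LE, was at least 2.72-fold lower. The calls for Clca1 and Kcne1 were lost without U-OEx LE library 1 or library 3, that for Kcne1 also without E-OEX LE library 2 or 3, and that for Clca2 without E-OEX LE library 2 or 3 or any U-OEx LE library, at pseudocount 10 and with edgeR. The number of transport genes called in either direction was 0 without U-OEx LE library 1 or 3, 1 without E-OEX LE library 2 or 3, 7 without E-OEX LE library 1 and 5 with DESeq2.

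Genes whose log2 values followed a member most closely over the libraries were found by Pearson's r, as a description, since group differences and shared scaling enter it. Over 15 libraries and 2492 genes, these were Arl4a (0.946), Tgfbr3 (0.943) and Slc6a2 (0.938) for Aqp1, Plekhg1 (0.961), Gm15482 (0.9505) and 5033425B01Rik (0.9502) for Aqp4, and Scml4 (0.954), Wfdc15b (0.947) and Gnb5 (0.939) for Aqp5. Htr1b (0.958), Tshr (0.957) and Gulp1 (0.948) were closest to Aqp8, and Tyms (0.989) and Kif14 (0.982) to Cftr. Over the 9 libraries that list them, Il1r1 (0.991), St6galnac2 (0.989) and Hmgcll1 (0.988) were closest to Scnn1a, and Slc5a9 (0.991), Aif1 (0.990) and Lcn2 (0.990) to Scnn1b.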

How the data were processed

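RNA from 15 samples (5 groups of 3) was isolated using the Qiagen RNeasy kit and made into NEBNext Ultra libraries, per the labels' protocols. The values the authors deposited are a signal, read counts divided by 1 factor per library, as read from the values: 100% were whole multiples of the library's step within 0.01 read. The aligner, counting tool, strand setting and scaling are not given in the sources used here. The build is GRCm38 (mm10), per the submitters' processing notes. The smallest absolute log2 ratio between GE and LE means was 1.00 in the WT tables and 0.998 in the E-OEX tables. Unnamed transcripts took up to 5.09% of reads and were tested but never named.

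Groups and replicate numbers came from sample titles. Nothing says that replicates are separate animals, so p-values measure the spread between these samples, which may be technical. No library repeated another: chi-square per degree of freedom between replicates was at least 16.6. The main test was limma 3.58.1 (R 4.3.3; lmFit, eBayes with trend) on log2(value + 1), mean value at least 1, Benjamini-Hochberg over all genes tested, threshold 0.05, in 7 comparisons. Genotype comparisons used recovered reads of shared genes, scaled by TMM (edgeR 4.0.16), since the tables appear to be scaled separately; comparisons of GE and LE and the interaction used deposited values. With 3 against 3 libraries an exact permutation test cannot go below p = 0.1, so none was run. A group at 3 reads or fewer in each library was at the floor. Its fold change is a lower bound, the mean of the other group over 3 reads per library. Single libraries of the other group can lie at or below that floor. Floors and the exact counting interval cover counting error only. Alternatives were deposited or DESeq2 scaling, pseudocounts 0.1 and 10, no filter or a mean of 10, edgeR, DESeq2 1.42.0, a replicate block, a fit over all groups, and each library left out. The code was tested on simulated data.

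All members are named. Of the transport lists, up to 3 genes per list and comparison between genotypes are named, those past the threshold with the largest change. For each member that is in a likeness search, the 3 genes with the highest r are named, among genes with a mean of at least 10. Some genes of the lists and of the likeness search are not reported here and were left out of the lists' counts and sums. Members and lists were chosen with earlier results of these data known. Markers of red cells, smooth muscle and nerve were also read: in LE they summed to 11.8 to 88.3, 17.3 to 230 and 0.913 to 117 scaled reads, and in GE to 66.1 to 314, 2734 to 17508 and 186 to 903. In LE, epithelial keratins, Cdh1 and Epcam, as far as listed, summed to 33458 to 65682, and in GE to 14008 to 17700.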

Additional observations from a re-analysis of the deposited data

Results flagged for a closer look

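The difference between GE and LE depended on genotype, by the limma test of that interaction, for 2 channel genes. The value was 3.42 (log2) for Aqp1, whose LE libraries were at 183 to 455 scaled reads in WT and 23.7 to 87.6 in E-OEX. The GE libraries of Aqp1 were at 424 to 898 in WT and 988 to 1151 in E-OEX. For Aqp5 the value was -5.98, and its LE libraries went from between 4.47 and 30.04 in WT to between 620 and 1308 in E-OEX. The same test passed for 2 other transport genes. Clca3a2 was at -6.67 (limma adjusted p = 0.0228), with E-OEX LE libraries at 994, 99.9 and 15.1 scaled reads. Fxyd4 was at 4.97 (limma adjusted p = 0.0144), with E-OEX LE libraries at 3415, 990 and 18723. The call for Clca3a2 was lost without WT GE library 1 or 3, E-OEX GE library 2 or 3 or WT LE library 3. Groups of 3 were too small for a check of single outlying libraries.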

How the results depend on the processing

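Counts of channel genes past the threshold stayed within 1.5 times of the reported ones except in 3 comparisons. In E-OEX GE against WT GE the count was 1 at a mean of at least 10, where Aqp4 was not tested. In U-OEx LE against E-OEX LE it was 4 with DESeq2 and 0 to 3 with a library left out, and in the interaction 4 at pseudocount 10. Directions turned only for values not called as reported: Aqp5 in E-OEX GE against WT GE was 0.26 on the deposited scale and -0.55 to 0.058 with a library left out. Cftr in U-OEx LE against WT LE was -0.072 with DESeq2's scaling, -0.033 with DESeq2 and -0.19 to 0.34 with a library left out, and Scnn1a there was -0.074 to 0.63. Aqp5 in U-OEx LE against E-OEX LE was -0.055 to 0.66 with a library left out. Aqp4 in the interaction was 1.84 at pseudocount 0.1, 1.51 with edgeR and 1.72 with DESeq2, and -3.12 at pseudocount 10, where it was called (adjusted p = 0.0372). The cause was not tested.

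Same-numbered libraries correlated weakly: in no comparison were all 3 correlations over 0.1 (lowest -0.333, highest 0.242). The labels give no pairing by number, and these values do not settle it. With a replicate block, the call for Cftr in E-OEX GE against WT GE was gained (adjusted p = 0.0360), transport calls in E-OEX LE against WT LE went from 0 to 2, channel counts were 3, 3, 3, 2, 6, 6 and 2 in the order of the comparisons (interaction last), and no call for a channel gene was lost. Of 6 libraries each, 2 to 5 correlated best with their own number. The 5 were in E-OEX GE against WT GE, with correlations of 0.039, 0.084 and 0.237.

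Over all genes, calls in E-OEX GE against WT GE numbered 670 (41.3% higher) after TMM and 789 (71.6% higher) on the deposited scale, with medians of 0.05 and 0.50. In E-OEX LE against WT LE 48.0% and 58.6% of calls were higher. That comparison had 277 calls, 456 with DESeq2, 616 in a fit over all groups and 56 to 322 with a library left out. The fit over all groups gave 285 for E-OEX GE against WT GE (362 to 728 with a library left out), 1274 of 3384 for U-OEx LE against WT LE, 2486 of 6223 and 2264 of 4491 for GE against LE in WT and E-OEX. The interaction had 315, 501 with DESeq2 and 179 to 449 with a library left out, and U-OEx LE against E-OEX LE had 642, with 60 to 904. The full depth of WT and E-OEX libraries is unknown, which limits the low values of Aqp8 and Aqp4.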
